A study of Bos indicus with 6 samples.

Results

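The aquaporins are the channel proteins through which water, and for some of them glycerol and urea, crosses cell membranes. Their transcripts were measured by RNA sequencing in the isthmus of the oviduct, the segment next to the uterus, of Nelore cows (Bos indicus). The members were the 8 rows of the deposited table whose gene symbol is AQP1, AQP3, AQP4, AQP5, AQP7, AQP8, AQP9 or AQP11, out of 24616 genes listed, and they were taken by name and not by any measured value. Of these 8, 6 passed the filters for testing, which asked for a mean normalized count above 5 and above its SD over the libraries. AQP7 and AQP8 did not pass.

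The study compared cows whose ovaries had been steered by hormones to ovulate either a large follicle followed by a large corpus luteum (LF/LCL) or a small follicle followed by a small corpus luteum (SF/SCL). All were healthy, multiparous Nelore cows that received prostaglandin F2α and a GnRH agonist to pre-synchronize them, then a progesterone-releasing vaginal device with estradiol benzoate, prostaglandin F2α at and after device removal, and GnRH to induce ovulation. The LF/LCL cows also received prostaglandin F2α when the device was placed, and their device was removed 42 h before GnRH, compared with 30 h in the SF/SCL cows. On day 4 after GnRH the cows were killed, and 1 isthmus library was made per cow, for 3 LF/LCL cows (617, 79 and 527) and 3 SF/SCL cows (856, 489215 and 97). The sequenced cows were selected from larger groups for their follicle and luteal response, and the tissue held the whole wall, from epithelium to muscle and serosa.

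Aquaporins form tetramers in which each subunit has its own pore, and water follows the osmotic gradient that ion transport sets up. AQP1, AQP4, AQP5 and AQP8 are mainly water channels. AQP3, AQP7 and AQP9 are aquaglyceroporins, which also pass glycerol and other small neutral solutes, and AQP11 is a divergent member found largely on intracellular membranes. In the oviduct, fluid in the lumen is formed by the epithelium from the blood supply of the wall, and gametes and early embryos are carried in it.

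The libraries held from 23899117 to 34193164 reads assigned to genes, recovered from the deposited normalized counts, and the 10 most abundant genes took from 4.34% to 7.56% of them. The library of cow 489215 stood apart from the other SF/SCL libraries: the median residual SD over all genes was 0.435 on the log2 scale with all 6 cows and 0.183 without it. Values that moved most with this cow are therefore also given without it. The cow was singled out from these same expression values. Any p-value without it is therefore descriptive and rests on cows 856 and 97 alone in SF/SCL. The secreted epithelial gene OVGP1 showed the same division, with normalized counts of 271794 in cow 856, 325158 in cow 97 and 730 in cow 489215, beside 287 to 1950 in the LF/LCL cows. The defining markers of smooth muscle, endothelium, ciliated cells and secretory epithelium were present in every library, except that the ciliary gene PIFO was at 0. Their presence does not tell the isthmus from other parts of the oviduct.

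No aquaporin passed the threshold between the groups. By limma with Benjamini-Hochberg adjustment over the 15387 genes tested, 0 of the 6 aquaporins and 0 of all genes had an adjusted p-value under 0.05 (0.00% of genes). The largest differences between group means were in AQP5 and AQP9, whose means in the SF/SCL cows were 2.05 and 1.99 times those in the LF/LCL cows. At an unadjusted p-value under 0.05, limma gave 1 of the 6 aquaporins, AQP5, and 8.66% of all genes. AQP5 was also the 1 member whose normalized counts did not overlap between the groups, where 18.1% of all genes tested did not overlap. Of the 6 members, 3 had a higher and 3 a lower fitted mean in SF/SCL, and their median log2 fold change, SF/SCL over LF/LCL, was 0.07, beside -0.02 for all genes tested, and without cow 489215 it was -0.02. With array weights, which let libraries differ in their variance, 2 of the 6 aquaporins passed, AQP5 and AQP9, where 29.8% of all genes did. The spread of the members between cows of a group was near that of all genes, with a median residual SD of 0.443 on the log2 scale beside 0.435. In bulk tissue, fewer cells of a type and less RNA per cell cannot be told apart in any of these values.

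**Figure D1:**
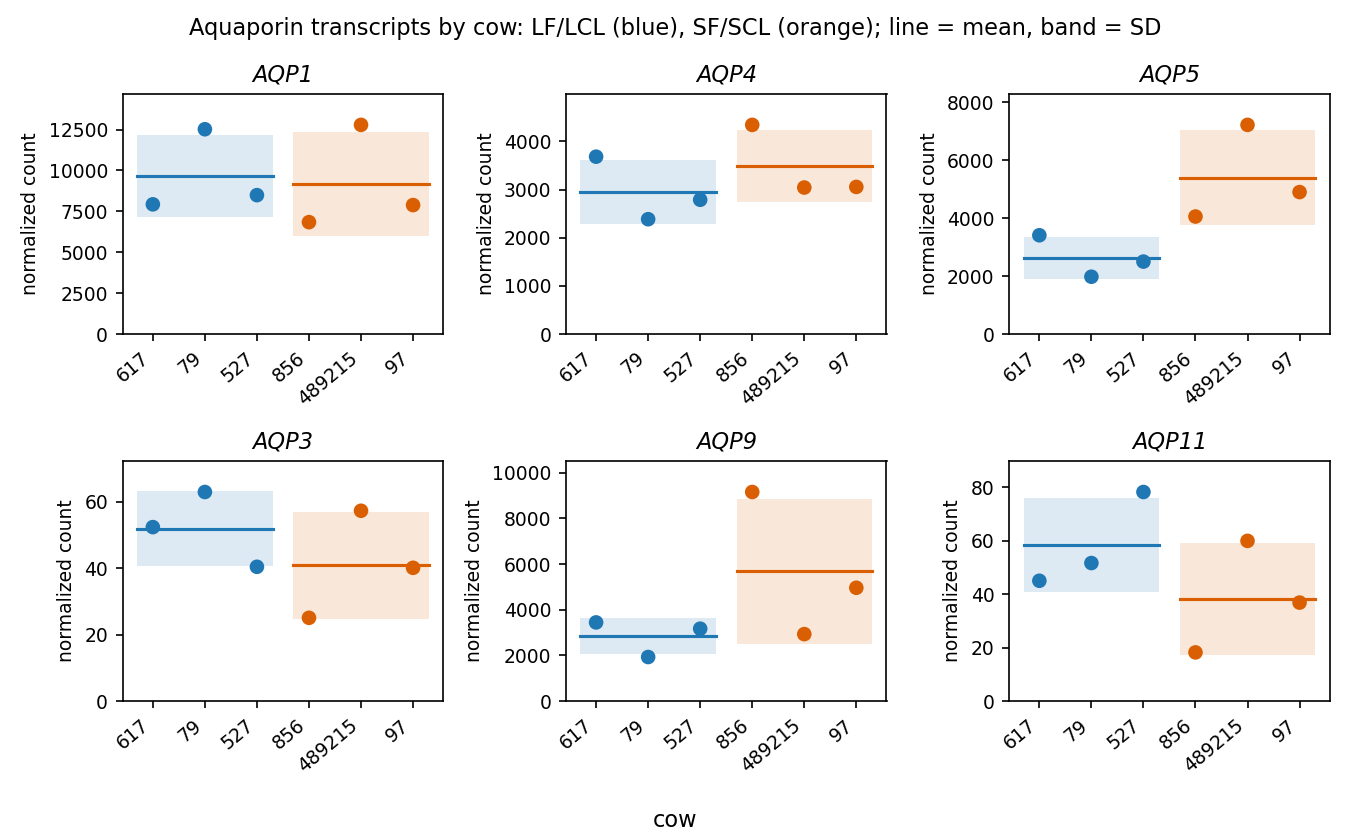
Normalized counts of the 6 aquaporins that passed the filters, 1 panel per gene on a linear axis from 0, with a point for each cow and the group mean ± SD of each group (n = 3). The AQP5 points run from 1979 to 3409 in LF/LCL and from 4055 to 7217 in SF/SCL, and in the other panels the groups overlap.

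AQP5 (ENSBTAG00000026813) is the water channel of the apical membrane in secretory epithelia such as salivary, lacrimal and airway glands. Its normalized counts were 3409, 1979 and 2501 in LF/LCL cows 617, 79 and 527, and 4055, 7217 and 4899 in SF/SCL cows 856, 489215 and 97. Every SF/SCL cow was above every LF/LCL cow, and the highest value was that of cow 489215. The means were 2629 ± 724 (SD, n = 3) and 5390 ± 1637 (SD, n = 3). The log2 fold change, SF/SCL over LF/LCL, was 1.03 (SE 0.30), with an adjusted p-value of 0.420 by limma, the smallest of the members. Without cow 489215 it was 0.80 (SE 0.23), with an adjusted p-value of 0.0554 by limma. The DESeq2 test on the recovered reads gave 1.03 with an adjusted p-value of 0.0850, a test in which 2.70% of genes and 0 of the 6 aquaporins passed.

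Markers of the epithelium had higher means in SF/SCL beside AQP5. Of 10 secretory and general epithelial markers tested, 8 had a higher fitted mean in SF/SCL, 6 of the 10 had an unadjusted p-value under 0.05 by limma (8.66% of all genes), and their median log2 fold change was 0.71. Without cow 489215 the median was 0.55, and 4 of the 10 passed the adjusted threshold by limma (18.2% of all genes), all higher in SF/SCL. The summed normalized counts of this list ran from 31028 to 45837 in LF/LCL and from 72985 to 383055 in SF/SCL, and none of its genes was at 0. The sum is carried by OVGP1 in cows 856 and 97, a gene not among the 10 because its SD exceeded its mean. Relative to the geometric mean of the same 10 markers, AQP5 had a log2 ratio of 0.13, -0.08 and 0.46 in LF/LCL cows 617, 79 and 527, and of 0.53, 0.65 and 0.57 in SF/SCL cows 856, 489215 and 97. The groups still did not overlap, by a narrow margin between cows 527 and 856, and the mean difference was 0.41 in place of 1.03. Taken against the markers singly, the ratio of AQP5 overlapped between the groups for 7 of the 10 genes. An example is EPCAM, the epithelial adhesion molecule, to which AQP5 stood in a ratio of 0.277, 0.199 and 0.293 in LF/LCL and of 0.256, 0.355 and 0.260 in SF/SCL. For KRT18 and ELF3 the ratio was higher in every SF/SCL cow, and for KRT7 it was higher in every LF/LCL cow. The KRT18 ratios all but met, at 0.5693 in LF/LCL cow 617 and 0.5697 in SF/SCL cow 97. ELF3 itself had a lower fitted mean in SF/SCL, at a log2 fold change of -0.54, which raises its ratio. All 11 ciliated cell markers tested had a higher fitted mean in SF/SCL, and 2 had an unadjusted p-value under 0.05 by limma (8.66% of all genes). Only DNAI1 and SNTN did not overlap between the groups, where 18.1% of all genes did not. FOXJ1, CCDC78, DNAI2, DNAH5, DNAH9 and TEKT1 had their lowest counts of all cows in SF/SCL cow 489215, with FOXJ1 at 2609. Relative to the 11 markers, the AQP5 difference was 0.41 with all cows and -0.35 without cow 489215, with overlap between the groups in both cases. The choice to set aquaporins against marker genes was made after the data were seen, and no test was run on these ratios. How many of all genes would not overlap on such ratios was not computed.

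**Figure D2:**
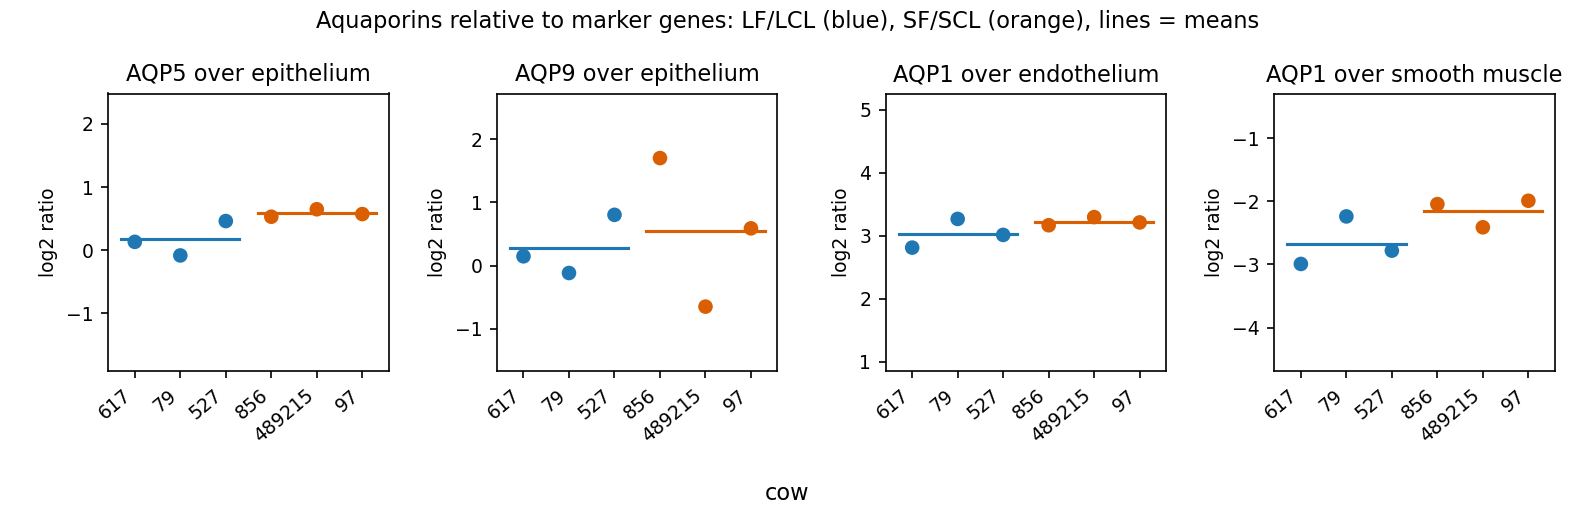
Log2 ratio of an aquaporin to the geometric mean of a list of cell type markers in the same library, with a point for each cow of both groups. AQP5 over the epithelial markers runs from -0.08 to 0.46 in LF/LCL and from 0.53 to 0.65 in SF/SCL, and AQP1 over the endothelial markers overlaps between the groups.

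AQP9 (ENSBTAG00000013452) is an aquaglyceroporin best known from liver and leukocytes. Its normalized counts were 3448, 1934 and 3173 in LF/LCL cows 617, 79 and 527, and 9155, 2936 and 4964 in SF/SCL cows 856, 489215 and 97. Cows 856 and 97 were above all LF/LCL cows, but cow 489215 lay between LF/LCL cows 79 and 527, so the groups overlapped. The means were 2852 ± 807 and 5685 ± 3172 (SD, n = 3 each), the widest SD of the abundant members relative to its mean in SF/SCL. The log2 fold change was 0.89 (SE 0.45), with an adjusted p-value of 0.656 by limma. It was 0.46 without cow 856, the highest of the SF/SCL cows. Without cow 489215 it was 1.29 (SE 0.33), with an adjusted p-value of 0.0419 by limma, and AQP9 was then the 1 aquaporin of 6 past the threshold, in a comparison where 18.2% of genes passed. That cow was singled out from these same data, and SF/SCL then held cows 856 and 97 alone, so this value is descriptive.

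Myeloid cells are a known source of AQP9 transcripts, and the level of their markers overlapped between the groups. Of 8 neutrophil and other myeloid markers tested, 2 had a higher fitted mean in SF/SCL and 6 a lower one, and the summed counts of the list were 1096 to 2272 in LF/LCL and 774 to 2013 in SF/SCL. The macrophage receptor CSF1R, among the most abundant of the list, had normalized counts of 273 to 1242 over all 6 cows, and the neutrophil gene S100A12 had 86.1 to 314, with its highest value in SF/SCL cow 97. The granulocyte receptor CSF3R lay at normalized counts of 5.42 to 12.6, and the neutrophil enzyme MPO at 0 to 3.04. Relative to the epithelial markers, the AQP9 difference was 0.27 on the log2 scale with all cows and 0.87 without cow 489215, with overlap between the groups in both cases.

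AQP1 (ENSBTAG00000000745) is the water channel of red blood cells and of capillary endothelium. Its normalized counts were 7931, 12521 and 8493 in LF/LCL cows 617, 79 and 527, and 6842, 12788 and 7886 in SF/SCL cows 856, 489215 and 97. Cow 79 of LF/LCL and cow 489215 of SF/SCL were both high, and the groups covered nearly the same range. The means were 9648 ± 2504 and 9172 ± 3175 (SD, n = 3 each). The log2 fold change was -0.10 (SE 0.31), with an adjusted p-value of 0.953 by limma. Its sign depended on single cows, at 0.11 without cow 79, 0.09 without cow 856 and -0.36 without cow 489215.

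The cows with the most AQP1 were also those with the highest summed counts of endothelial markers. The summed normalized counts of 11 endothelial markers were 15830 to 20179 in LF/LCL and 12902 to 19927 in SF/SCL, and the highest value of each group was in cow 79 and in cow 489215. Single markers disagreed with the sum in cow 489215. CDH5 and KDR had their lowest counts of all cows there, at 422 and 3344. EMCN, CLDN5, ESAM, EGFL7, ROBO4 and ERG had their highest there, with EMCN at 4179. Relative to the geometric mean of these markers, AQP1 had log2 ratios of 2.81, 3.27 and 3.01 in LF/LCL and of 3.17, 3.30 and 3.21 in SF/SCL, which overlapped and differed by 0.19 on average. Of the 11 endothelial markers, 10 had a lower fitted mean in SF/SCL, and 1 had an unadjusted p-value under 0.05 by limma, where 8.66% of all genes did. Their median log2 fold change was -0.27, or -0.50 without cow 489215, when 4 of the 11 passed the adjusted threshold by limma (18.2% of all genes), all lower in SF/SCL. Red cell transcripts were nearly absent, with the globin gene HBB at normalized counts of 0 to 2.66 and the red cell membrane gene RHAG at 0 in every cow. All 9 smooth muscle markers tested had a lower fitted mean in SF/SCL, and 2 had an unadjusted p-value under 0.05 by limma (8.66% of all genes). MYH11, SYNPO2 and MYLK did not overlap between the groups, where 18.1% of all genes did not. ACTA2, CNN1, DES, SMTN and TAGLN had their highest counts of all cows in cow 489215, with ACTA2 at 533926. Relative to the 9 markers the AQP1 difference was 0.52, with overlap between the groups, and 0.65 without cow 489215, with no overlap. How many of all genes would not overlap on this ratio was not computed.

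AQP4 (ENSBTAG00000019037) is the water channel of astrocyte endfeet and of the basolateral membrane of several epithelia. Its normalized counts were 3684, 2386 and 2790 in LF/LCL cows 617, 79 and 527, and 4345, 3043 and 3056 in SF/SCL cows 856, 489215 and 97. The SF/SCL cows covered a range that held cow 617, so the groups overlapped. The means were 2953 ± 664 and 3482 ± 748 (SD, n = 3 each). The log2 fold change was 0.24 (SE 0.24), with an adjusted p-value of 0.860 by limma, and AQP4 varied least between cows of the 6 members, with an SD of 0.277 over all cows on the log2 scale. Relative to the epithelial and to the ciliated markers its difference had the opposite sign, at -0.38 for each list, with overlap between the groups. Without cow 489215 the difference was -0.09 from the epithelial markers, with overlap, and -0.82 from the ciliated markers, with no overlap. How many of all genes would not overlap on such a ratio was not computed.

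AQP3 and AQP11 were read from few reads. AQP3 (ENSBTAG00000008493), the basolateral aquaglyceroporin of skin, kidney and gut epithelium, had normalized counts of 52.3, 62.9 and 40.4 in LF/LCL cows 617, 79 and 527, and of 25.1, 57.2 and 40.1 in SF/SCL cows 856, 489215 and 97. Its values came from 33 to 67 reads a library, and the 95% exact Poisson interval of the lowest, cow 856, was 17.3 to 35.2 normalized counts, compared with 48.7 to 79.9 for the highest, cow 79. These intervals cover counting error only. The means were 51.9 ± 11.2 and 40.8 ± 16.1 (SD, n = 3 each), and the log2 fold change was -0.39 (SE 0.43), with an adjusted p-value of 0.871 by limma. It was -0.67 without cow 489215 and -0.09 without cow 856. The groups overlapped, and only cow 856 lay below every LF/LCL cow by more than 1 normalized count.

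AQP11 (ENSBTAG00000019928) resides in the endoplasmic reticulum of kidney and liver cells. Its normalized counts were 45.0, 51.6 and 78.2 in LF/LCL cows 617, 79 and 527, and 18.2, 59.9 and 36.8 in SF/SCL cows 856, 489215 and 97. Cow 489215 lay among the LF/LCL cows, and cows 856 and 97 lay below them. The means were 58.3 ± 17.6 and 38.3 ± 20.9 (SD, n = 3 each), and the log2 fold change was -0.70 (SE 0.53), with an adjusted p-value of 0.803 by limma. Without cow 489215 it was -1.10 (SE 0.44), with an adjusted p-value of 0.140 by limma. Relative to the 10 epithelial markers, both of these low members were lower in every SF/SCL cow than in every LF/LCL cow, by -1.01 for AQP3 and -1.32 for AQP11 on the log2 scale. By themselves both overlapped, and how many of all genes would not overlap on this ratio was not computed. Relative to the smooth muscle markers the differences were 0.23 and -0.09 and the groups overlapped. The list of epithelial markers had a higher and that of smooth muscle a lower median in SF/SCL, at 0.71 and -0.60. Without cow 489215 the smooth muscle median was -1.02, and 7 of its 9 markers passed the adjusted threshold by limma. So did 34 of 78 marker genes over the 11 marker lists, in a comparison where 18.2% of all genes passed.

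AQP7 and AQP8 were at the limit of detection. AQP7 (ENSBTAG00000020105), the aquaglyceroporin through which adipocytes release glycerol, had 0, 4 and 0 reads in LF/LCL cows 617, 79 and 527, and 3, 1 and 0 reads in SF/SCL cows 856, 489215 and 97. With 8 reads over 6 libraries no order between the groups could be read at this depth. An exact permutation test has 10 divisions of the cows and cannot give a p-value under 0.1, so none is given. AQP8 (ENSBTAG00000020184), a channel for water, ammonia and hydrogen peroxide known from pancreas, liver and colon, had 0 reads in all 6 libraries. A count of 0 leaves room for 3 reads, which is from 2.28 normalized counts in cow 856 to 3.99 in cow 489215. Among adipocyte markers, ADIPOQ and CIDEC lay at normalized counts of 2.17 to 15.8 and 0 to 2.28, PLIN4 at 395 to 2232 and LPL at 1459 to 2785, and the 4 markers tested had lower fitted means in SF/SCL.

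By the categories used for these data (high at a mean normalized count of 1000 or more, medium at 15 or more, low below 15), AQP1, AQP4, AQP5 and AQP9 were high, AQP3 and AQP11 medium, and AQP7 and AQP8 low. Normalized counts are not corrected for transcript length, so the members are not ranked against each other, and only the same gene or the same ratio of genes is compared between cows. The summed normalized counts of the 8 members were 18569, 18938 and 17075 in LF/LCL cows 617, 79 and 527, and 24442, 26103 and 20881 in SF/SCL cows 856, 489215 and 97. These sums did not overlap between the groups, where 18.1% of single genes tested did not. They add counts that are not corrected for length, and they partly repeat AQP5 and AQP9, whose means differed most. AQP1 held 42.7%, 66.1% and 49.7% of the sum in the LF/LCL cows, and in SF/SCL it ran from a lowest share in cow 856 to 37.8% in cow 97 and 49.0% in cow 489215, so that the groups overlapped. AQP9 held 37.5% of the sum in cow 856 but 11.2% in cow 489215, whereas AQP5 held 16.6% in cow 856 and 27.6% in cow 489215. The SF/SCL cows therefore differed among themselves in which of these genes held more of the sum.

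Ratios between members within a library do not depend on the scaling of the library. Of the 6 ratios between AQP1, AQP4, AQP5 and AQP9, 2 did not overlap between the groups, and both held AQP5. AQP5 by itself did not overlap either, so these 2 ratios partly repeat that result. Of all single genes tested, 18.1% did not overlap, and the share among other gene pairs was not computed. The ratio of AQP5 to AQP1 was 0.430, 0.158 and 0.294 in LF/LCL cows 617, 79 and 527, and 0.593, 0.564 and 0.621 in SF/SCL cows 856, 489215 and 97. The 3 SF/SCL cows lay close together here, cow 489215 included. The ratio of AQP5 to AQP4 was 0.829 to 0.925 in LF/LCL and 0.933, 2.37 and 1.60 in SF/SCL, so that cow 856 exceeded cow 617 by little. The ratio of AQP9 to AQP5 was 0.977 to 1.27 in LF/LCL and spread from 0.407 in cow 489215 to 2.26 in cow 856 in SF/SCL. These ratios are descriptions without a test.

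**Figure D3:**
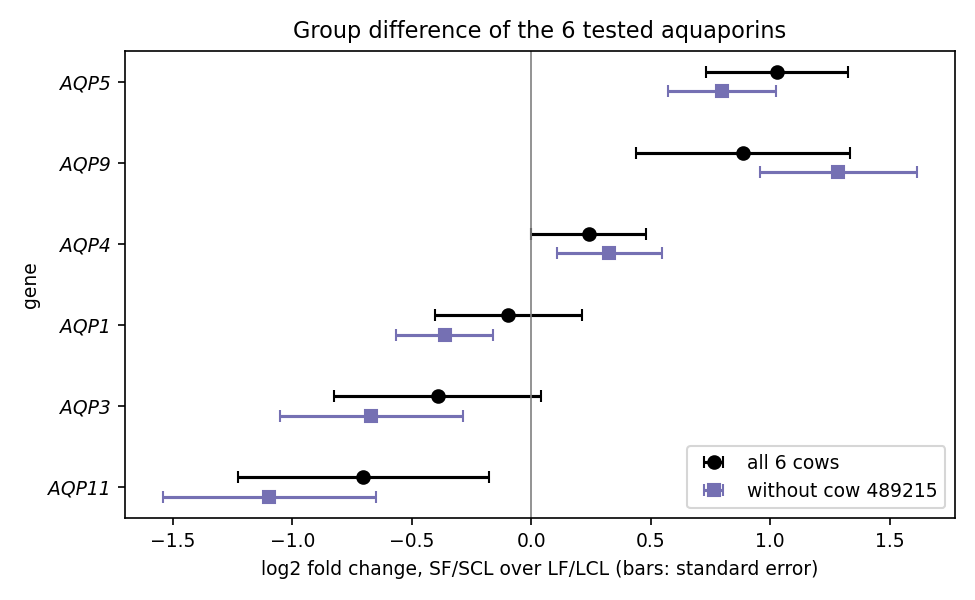
Log2 fold change, SF/SCL over LF/LCL, of the 6 aquaporins tested, with bars for the standard error, from limma with all 6 cows and without cow 489215. AQP5 lies at 1.03 and 0.80, AQP9 at 0.89 and 1.29, and AQP1 at -0.10 and -0.36, and of these AQP9 without cow 489215 has an adjusted p-value under 0.05. Cow 489215 was singled out from these same data.

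Of the other members of the family, a list of 7 symbols gave 4 rows in the table. AQP6, an anion-conducting channel of intracellular vesicles in the kidney, was the 1 gene of these that could be tested. Its normalized counts were 339, 170 and 192 in LF/LCL cows 617, 79 and 527, and 47.1, 182 and 146 in SF/SCL cows 856, 489215 and 97. The groups overlapped through cow 489215, and the log2 fold change was -1.04 (SE 0.58), with an adjusted p-value of 0.708 by limma, or -1.41 without that cow. AQP2, the vasopressin-regulated channel of the kidney collecting duct, lay between 0 and 6.08 normalized counts, the lens channel MIP between 0 and 3.14, and the intestinal channel AQP10 at 0 in every cow. In the RefSeq gene table of assembly NIAB-ARS_B.indTharparkar_mat_pri_1.0, which is not the assembly the reads were aligned to, AQP6, AQP5 and AQP2 neighbour each other, as do AQP7 and AQP3. Of the neighbours AQP6 and AQP5, the first had its lowest count in cow 856 and the second its highest in cow 489215, and AQP2 was near 0 beside both. Whether the counting used the strand is not given in the sources used here, so reads from overlapping genes at such sites cannot be told apart.

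Genes that work with aquaporins were taken from 4 further lists. None of the genes tested in them had an adjusted p-value under 0.05 by limma, as for the genome, where 8.66% of genes had an unadjusted p-value under 0.05 and 18.1% did not overlap between the groups. In the dystrophin complex, which anchors AQP4 at the membrane, 3 of 10 genes had a higher and 7 a lower fitted mean in SF/SCL, 2 had an unadjusted p-value under 0.05, 3 did not overlap, and the median log2 fold change was -0.33, or 0.25 without cow 489215. The lowest was the syntrophin SNTB1, with normalized counts of 2154, 1934 and 1917 in LF/LCL and 965, 911 and 824 in SF/SCL, a log2 fold change of -1.15 (SE 0.17) and an adjusted p-value of 0.351 by limma. The highest was the dystrobrevin DTNB, at 0.59, and dystroglycan (DAG1) also did not overlap, at -0.77. That of DAG1 rested on cow 489215, with 1373 normalized counts beside 5487 and 5680 in cows 856 and 97, and was -0.10 without it. By DESeq2, where 2.70% of all genes passed, SNTB1 was the 1 gene of this list past the threshold, with an adjusted p-value of 1.13e-07.

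Among genes of glycerol release and use, 8 could be tested, 2 with a higher and 6 with a lower fitted mean in SF/SCL, 1 had an unadjusted p-value under 0.05 and 1 did not overlap, and the median log2 fold change was -0.16. The monoglyceride lipase MGLL was lowest, at -0.74, with normalized counts of 384, 485 and 322 in LF/LCL and 207, 212 and 292 in SF/SCL. The glycerol-3-phosphate dehydrogenase GPD1 was highest, at 0.35, and overlapped.

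Of 15 cell volume and osmolyte genes tested, 3 had a higher and 12 a lower fitted mean in SF/SCL, 4 had an unadjusted p-value under 0.05, 4 did not overlap, and the median log2 fold change was -0.45, or -0.01 without cow 489215. The taurine transporter SLC6A6 was lowest, at -1.90, with normalized counts of 118, 145 and 167 in LF/LCL, and of 57.7 and 72.6 in SF/SCL cows 856 and 97, with the lowest value in cow 489215, without which it was -1.12. SLC12A2, the sodium-potassium-chloride cotransporter that loads chloride into fluid-secreting cells, had normalized counts of 1841, 2458 and 1565 in LF/LCL and 817, 531 and 655 in SF/SCL. Its groups lay well apart, with a log2 fold change of -1.55 (SE 0.26) and an adjusted p-value of 0.351 by limma. By DESeq2 its adjusted p-value was 0.000147, the 1 gene of this list past that threshold, which 2.70% of all genes passed. The volume-regulated anion channel subunits LRRC8C and LRRC8D also did not overlap and differed in sign, at -0.68 and 0.45.

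In the vasopressin and cAMP arm of aquaporin trafficking, 18 genes could be tested, 6 with a higher and 12 with a lower fitted mean in SF/SCL, 3 had an unadjusted p-value under 0.05, 6 did not overlap, and the median log2 fold change was -0.22. The kinase anchor AKAP7 was highest, at 0.75, with normalized counts of 254, 237 and 292 in LF/LCL and 408, 515 and 400 in SF/SCL. By DESeq2 it was the 1 gene of the list past the threshold (adjusted p = 0.0474), which 2.70% of all genes passed. The adenylate cyclase ADCY3 was lowest, at -0.73, or -0.48 without cow 489215. The other genes without overlap were the kinase anchor AKAP1 at -0.65, the protein kinase A subunit PRKACA at -0.33, and the vesicle fusion genes VAMP2 at -0.26 and SNAP23 at 0.34. The vasopressin receptors AVPR2 and AVPR1A were scarce, at 5.27 to 34.6 and 1.08 to 14.6 normalized counts.

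Without cow 489215, 18.2% of all genes passed the adjusted threshold by limma. Of 52 genes tested in these lists and that of other family members, 12 passed, and they are named here because of that result. SNTB1 and SLC12A2 were lower in SF/SCL, at log2 fold changes of -1.16 and -1.39, as were AKR1B1, SLC6A6, LRRC8C, PLIN2, AKAP1 and PRKACB. DTNB, AGRN, UTRN and AKAP7 were higher in SF/SCL. AGRN and UTRN show how far cow 489215 bears on these values: agrin had 6782 and 7574 normalized counts in cows 856 and 97 and 1097 in cow 489215, and utrophin 10919 and 10885 beside 1922. AKR1B1, the aldose reductase that makes sorbitol, showed the reverse, with 586 and 500 beside 4075.

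**Figure D4:**
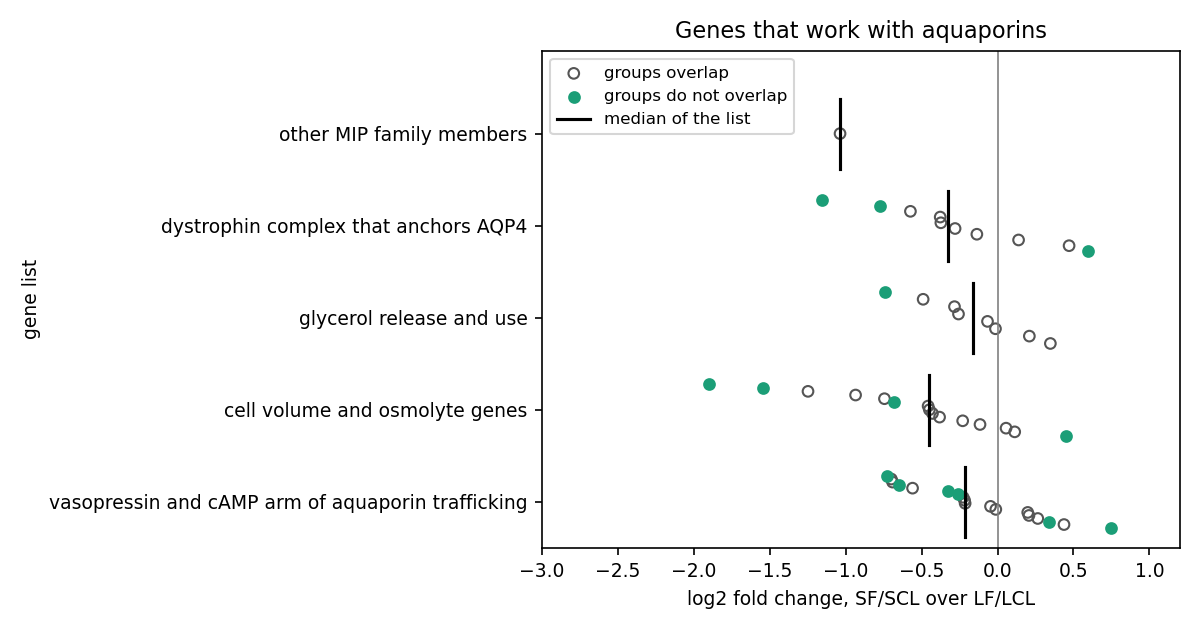
Log2 fold change, SF/SCL over LF/LCL, of each gene tested in the 5 lists of other family members and partners of aquaporins, with a vertical bar at the median of each list and filled points where the normalized counts of the groups do not overlap. The medians of the 4 longer lists run from -0.45 to -0.16, and the lowest point is SLC6A6 at -1.90.

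The genes whose pattern over the 6 libraries was nearest to each member were found by the root mean square difference of log2 values centred on each gene's mean. Nearest to AQP5 were the membrane mucin MUC1 at 0.151, the choline transporter family member SLC44A4 at 0.184 and BEX5 at 0.190, beside an SD of AQP5 itself of 0.613. MUC1 is also in the list of epithelial markers, and its normalized counts were 2866, 1639 and 1946 in LF/LCL and 2782, 6421 and 3287 in SF/SCL. It shared with AQP5 its lowest cow, 79, and its highest, 489215, but its groups overlapped. The genes nearest to AQP9 were further off, with PFKFB3, which drives glycolysis, at 0.228, HINT3 at 0.231 and MARCH3 at 0.232, beside its SD of 0.699.

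Nearest to AQP1 were MGC142695 at 0.0654, GNL3 at 0.0821 and LETM2 at 0.0846, beside an SD of 0.345. Nearest to AQP4 were the cilium-associated gene CCDC146 at 0.0590, NUDT18 at 0.0925 and HMMR at 0.104, beside an SD of 0.277. For the low members the nearest were SCGB1C1 at 0.104, GNAI1 at 0.105 and PPIE at 0.106 for AQP3, with an SD of 0.429, and EGFL8 at 0.0819, NRXN2 at 0.0968 and CENPH at 0.0990 for AQP11, with an SD of 0.642. With 6 libraries and 15387 genes, some near matches arise for any pattern, and all of these points share the same libraries.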

How the data were processed

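RNA of the isthmus was sequenced in 6 libraries, 1 per cow. Per the methods, seqyClean trimmed the reads, and the authors mapped what was left to a repeat-masked UMD cattle assembly with TopHat2 2.0.8 and Bowtie2 2.1.0, and counted unique alignments per Ensembl gene with HTSeq 0.5.4p2. The deposited signal values are counts after division by DESeq 1.12.1 size factors, as the authors made them. Dividing each library by its smallest step gave whole reads (within 0.1 read) for 100% of 147696 values, in totals of 23899117 to 34193164. Groups came from the sample titles. A gene was tested if its mean over the libraries exceeded both 5 and its own SD (15387 genes), as log2(value + 1) with limma 3.58.1 in R 4.3.3 (trend and robust), with Benjamini-Hochberg adjustment over all of them and a threshold of 0.05, so fold changes are on the log2(value + 1) scale and understate those of low genes. Replicates were separate cows.

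The members were taken by symbol, and the gene lists were chosen with earlier results of these data known. Named in the text were all members, the extremes and non-overlapping genes of each list, and the 3 nearest profiles among genes with a symbol, for members with a mean of 15 or more. Alternatives were edgeR 4.0.16, DESeq2 1.42.0 and voom on the recovered reads, other filters and pseudocounts, array weights, and leaving out each cow. The fits were checked on simulated data, where DESeq2 made more false calls than its threshold allows and limma, edgeR and voom did not. The simulation does not settle the error rates in the measured libraries, where 1 SF/SCL library stood apart from the others of its group. Marker lists not described with a member gave summed normalized counts in LF/LCL and SF/SCL of 19514 to 23529 and 14126 to 50027 (ciliated cells), 808563 to 926324 and 375799 to 1275160 (smooth muscle), 22.5 to 57.6 and 25.1 to 95.9 (erythrocytes), 3824 to 4116 and 2374 to 3320 (adipocytes), 4185 to 6347 and 10281 to 33016 (nerve), 1919 to 2565 and 1931 to 2704 (lymphocytes), 2949 to 3484 and 3532 to 28729 (mesothelium), and 116 to 675 and 165 to 2015 (stratified epithelium). The mesothelium sum was carried by MSLN and WT1 in SF/SCL cows 856 and 97. LRRN4 went the other way, at 175 to 412 in LF/LCL and 3.80 to 16.3 in SF/SCL. BNC1, the 1 mesothelium marker tested, was also lower in SF/SCL, at a log2 fold change of -1.97. The nerve sum was carried by S100B, at 8852 to 32285 in SF/SCL. Of 8 nerve markers tested, 3 had a higher and 5 a lower fitted mean in SF/SCL. Summaries were made in Python 3.11.15 (pandas 2.3.3, numpy 2.4.6, scipy 1.17.1), and figures in matplotlib 3.10.9.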

Additional observations from a re-analysis of the deposited data

How the results depend on the processing

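AQP5 kept a higher mean in SF/SCL under all 17 alternatives, with log2 fold changes of 0.80 to 1.23 and adjusted p-values of 0.00468 to 0.999, as did AQP9 at 0.46 to 1.29 (0.0158 to 0.999). AQP4 ran from 0.07 to 0.41, AQP3 from -0.67 to -0.09 and AQP11 from -1.10 to -0.26, and none of these passed the threshold in any of them. AQP1 changed sign with single cows, with a range of -0.36 to 0.11 over leaving out each cow (0.11 without cow 79 and 0.09 without cow 856). Relative to marker genes, a choice made after seeing the data, the sign also changed for AQP4 over epithelial (-0.38) and ciliated (-0.38) markers, AQP1 over endothelial (0.19) and smooth muscle (0.52) markers, and AQP3 over smooth muscle markers (0.23). Array weights, whose estimate stopped before it met its tolerance, weighted cow 489215 at 0.0477, and with them AQP5 (adjusted p = 0.00468 by limma) and AQP9 (adjusted p = 0.0158 by limma) passed, 2 of 6 members where 29.8% of genes passed. Leaving out each cow gave 0 to 1 aquaporins. Array weights gave 5 genes of the dystrophin complex, 2 of glycerol use, 6 of cell volume and 6 of the vasopressin arm. DESeq2 gave 1 of the dystrophin complex, 1 of cell volume and 1 of the vasopressin arm, and leaving out each cow gave 0 to 4, 0 to 1, 0 to 4 and 0 to 3 of these lists in that order. Over all genes, 0 passed by limma and by edgeR, with 1333 and 1307 at an unadjusted p-value under 0.05, beside 416 by DESeq2, 2827 without cow 489215 and 4581 with array weights. The cause of these differences was not tested. AQP3, AQP7 and AQP11 are limited by their few reads.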
